A study of Mus musculus with 78 samples.

Results

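The genes described here are 6 genes of zinc handling in mouse cartilage engineered in culture: the metallothioneins Mt1 and Mt2, the zinc-sensing transcription factor Mtf1, the zinc importers Slc39a14 and Slc39a8, and the zinc exporter Slc30a1. They were taken by name from an mRNA table of 52459 named genes, and all 6 were among the 18857 genes that passed the low-count filter. All libraries came from cartilage tissue grown from murine induced pluripotent stem cells. Tissue was exposed to 1 ng/mL of the inflammatory cytokine interleukin-1 beta (IL-1beta) or to 20 ng/mL of tumor necrosis factor alpha (TNF-alpha), each for 4, 12, 24 or 72 h, and controls without cytokine were taken at 0, 4, 12, 24 and 72 h. These 13 groups held 3 libraries each (replicates a, b and c), apart from the control at 0 h, of which 2 were used because the column of its replicate b did not hold a cartilage profile. The labels name neither the stem cell line nor whether replicates were separate cultures, so the p-values measure the spread between these libraries, which may be technical.

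Metallothioneins are small proteins rich in cysteine that bind zinc and copper and buffer their free level in the cell. Mtf1 binds metal response elements in DNA when zinc is plentiful and switches on the metallothioneins and Slc30a1, which carries zinc out of the cell. Slc39a14 (ZIP14) and Slc39a8 (ZIP8) carry zinc, and also iron, manganese and cadmium, into the cytosol, and metallothioneins and ZIP14 are well known to rise in the liver during the acute phase of inflammation. In mouse chondrocytes, zinc entry through Slc39a8 and activation of Mtf1 have been linked to the expression of enzymes that degrade cartilage matrix.

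In the RefSeq annotation of GRCm38.p6, Mt2 lies at chr8:94172618-94173567 and Mt1 at chr8:94178883-94180327, on the same strand with a gap of 5315 bases. Mtf1 lies at chr4:124802549-124849800, Slc39a14 at chr14:70303467-70351452, Slc39a8 at chr3:135816882-135888572 and Slc30a1 at chr1:191906697-191913248. The count table carries no positions of its own. Promoter windows of 300 bases, from 250 before to 50 from the annotated start, were matched for 5 of the 6 genes. The start in the promoter table can lie inside the gene span given here, as it does for Mt1 and Slc30a1. The windows of Mt2 (chr8:94172368-94172667), Mt1 (chr8:94178839-94179138) and Slc30a1 (chr1:191906531-191906830), all on the plus strand, are printed. These genes are the classical targets of Mtf1, and among the 5 members with a window they hold the motif most often. Capitals mark the core of the metal response element, searched as TGCACNC and TGCGCNC on both strands.
Mt2: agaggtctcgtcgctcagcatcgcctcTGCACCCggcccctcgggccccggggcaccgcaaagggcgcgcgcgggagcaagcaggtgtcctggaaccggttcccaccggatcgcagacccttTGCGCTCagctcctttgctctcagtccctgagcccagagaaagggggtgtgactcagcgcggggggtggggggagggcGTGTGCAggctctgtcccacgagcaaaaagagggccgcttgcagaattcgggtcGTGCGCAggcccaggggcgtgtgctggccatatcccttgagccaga
Mt1: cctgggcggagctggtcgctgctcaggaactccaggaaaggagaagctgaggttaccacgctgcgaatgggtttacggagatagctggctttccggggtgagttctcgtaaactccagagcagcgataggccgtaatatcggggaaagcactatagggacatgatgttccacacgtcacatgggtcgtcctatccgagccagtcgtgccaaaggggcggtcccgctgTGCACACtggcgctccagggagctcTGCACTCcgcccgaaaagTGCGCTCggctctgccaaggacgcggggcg
Slc30a1: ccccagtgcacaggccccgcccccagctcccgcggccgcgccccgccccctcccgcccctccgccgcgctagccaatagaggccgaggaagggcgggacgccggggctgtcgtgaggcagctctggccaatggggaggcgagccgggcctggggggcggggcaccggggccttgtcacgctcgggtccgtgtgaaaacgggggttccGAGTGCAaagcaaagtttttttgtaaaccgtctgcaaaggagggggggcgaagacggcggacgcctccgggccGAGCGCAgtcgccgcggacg
The core occurred 4 times in the window of Mt2, 3 times in that of Mt1 and 2 times in that of Slc30a1. The cores that begin at bases 253 and 271 of Mt1, 255 of Mt2 and 281 of Slc30a1 lie past the annotated start. Among 32841 RefSeq windows of the same length, 25.7% held at least 1 core, 1.97% at least 3 and 0.518% at least 4. The share with at least 2 was not counted. The core of the antioxidant response element, TGACNNNGC, occurred once each in the windows of Mt2 and Slc30a1, where it shares no base with the capitals, and in 1 of the 2 windows of Slc39a8, and 12.4% of all windows hold it. The cores of the STAT element, TTCNNNGAA, and of the NF-kappaB element were in none of the 3 windows, against 8.3% and 8.46% of all windows. The window of Mtf1 held none of these 4 motifs, and the other window of Slc39a8 held a single metal response element core. A match is a description of letters, and no match says only that these letters are not in this window.

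The 38 libraries held 11163263 to 68655350 counts. All 8 cartilage markers on a list of defining genes (among them Col2a1 and Acan) were detected in every library, with a summed level of 11370 to 97660 TPM (counts scaled to gene length and library) with IL-1beta, 26830 to 78990 TPM with TNF-alpha and 53500 to 84480 TPM in control tissue. The sum was lowest with IL-1beta at 72 h, at 11370 to 12310 TPM, against 56010 to 71930 TPM in control tissue. A list of 7 macrophage and leukocyte markers summed to 125.6 to 137.1 TPM with IL-1beta at 24 h against 70.05 to 98.58 TPM in control tissue, to 75.97 to 90.96 TPM with IL-1beta at 72 h against 72.36 to 82.58 TPM, and to 141.3 to 189.6 TPM with TNF-alpha at 72 h against the same controls. Nearly all of it came from Cd68 and Lyz2, while the defining leukocyte gene Ptprc was at 0.105 TPM or less in every library, Cd3e was at 0 in 25 libraries and Csf1r was at or under 2.88 TPM. Endothelial markers summed to at most 1.27 TPM in any library and pluripotency markers to at most 6.2 TPM, nearly all Sox2. Adipocyte markers summed to 33.98 to 42.07 TPM with IL-1beta and to 0.705 to 1.96 TPM with TNF-alpha at 72 h, against 17.9 to 45.6 TPM in control tissue. Neural markers (Map2 at 7.43 to 26.6 TPM and Tubb3 at 1.39 to 13.0 TPM over the 38 libraries, with Neurod1 at 0 in 30) summed to 10.9 to 13.6 TPM with IL-1beta at 24 h against 25.2 to 29.0 TPM in control tissue, and at 72 h to 9.01 to 11.1 TPM with IL-1beta and 15.4 to 19.9 TPM with TNF-alpha against 26.1 to 29.3 TPM. Muscle markers, nearly all Des, summed to 2.74 to 3.74 TPM with IL-1beta and 2.57 to 3.22 TPM with TNF-alpha at 72 h, against 4.997 to 7.28 TPM in control tissue. The part of such cells in the results was not tested, and in bulk tissue fewer cells of a type and less RNA per cell cannot be told apart. Libraries of the control at 0 h, the control at 4 h and IL-1beta at 4 h stood apart from the other 30 in 15 genes that were at least 2-fold lower there, 12 of them predicted genes, and none of the 6 genes described here. The comparisons of TNF-alpha with control and with IL-1beta at 4 h run across this parting, so a batch of libraries and the cytokine cannot be told apart in them.

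Per length, Mt1 was the most abundant of the 6 genes, with a mean of 2216 TPM over the 38 libraries and rank 42 of the 18857 genes. Mt2 followed with 935.1 TPM (rank 97) and Slc39a14 with 386.5 TPM (rank 271). Slc39a8 averaged 61.2 TPM, Slc30a1 27.0 TPM and Mtf1 12.2 TPM. The TPM use the gene lengths of the deposited table, which are 1246 bases for Mt1 and 588 bases for Mt2. Across the 13 groups the highest group mean of CPM (counts scaled to library size, with TMM factors) was 9.86 times the lowest for Mt2, 7.47 times for Slc39a14, 5.37 times for Mt1, 3.11 times for Slc39a8, 1.9 times for Slc30a1 and 1.39 times for Mtf1.

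**Figure D1:**
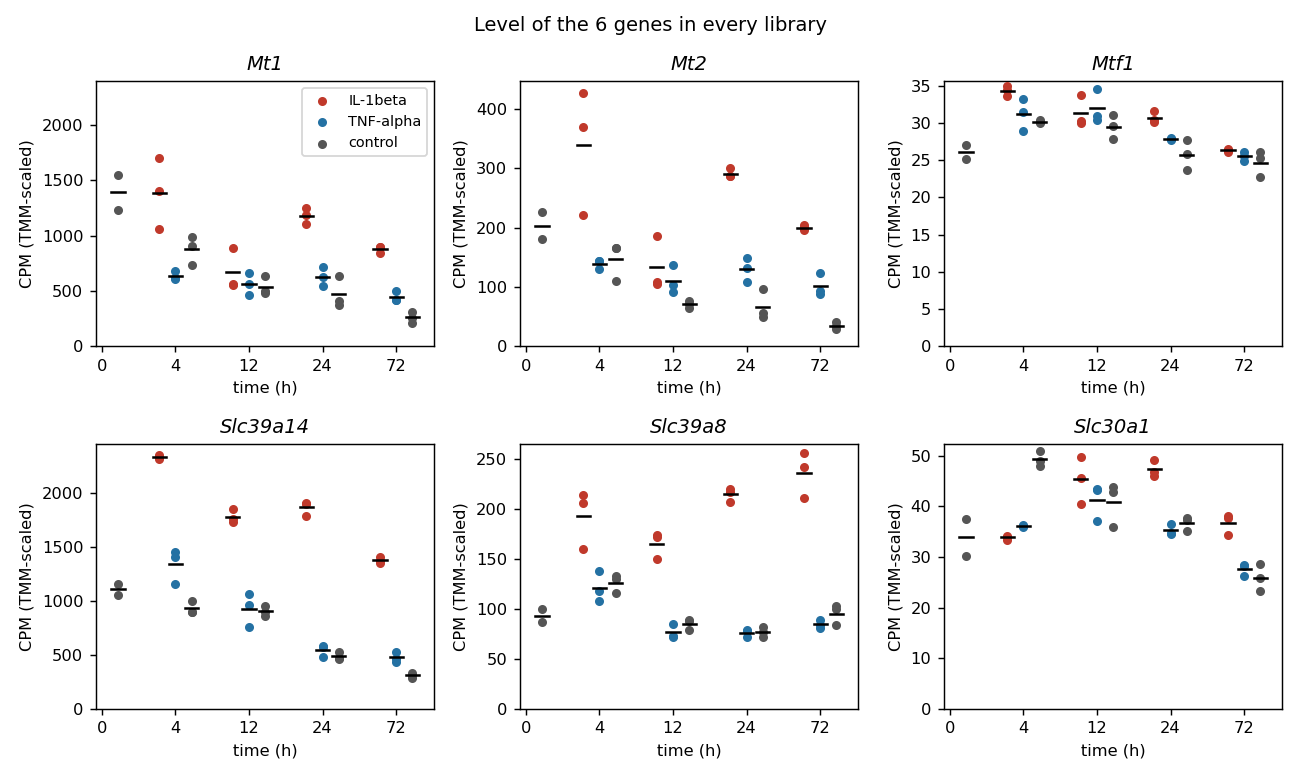
Level of each of the 6 genes (vertical axes, CPM after TMM scaling, each from 0) by time in h (horizontal axes, times evenly spaced), with 1 point per library and a black bar at the group mean, for IL-1beta, TNF-alpha and control. The points of IL-1beta lie above those of control at all 4 times for Mt2, Slc39a14 and Slc39a8, and control levels of Mt1, Mt2 and Slc39a14 are lowest at 72 h.

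Both metallothioneins rose with IL-1beta, Mt2 at all 4 times and Mt1 at 4, 24 and 72 h, and the rises at 72 h stood against controls in which both genes had fallen. Mt2 also rose with TNF-alpha at 12, 24 and 72 h, and Mt1 at 72 h. At 4 h, Mt2 had 221, 369 and 427 CPM in IL-1beta libraries and 165.9, 165.8 and 109.8 CPM in control libraries. All IL-1beta libraries lay above all controls, and library a lay nearest to them. The log2 fold change was 1.20 ± 0.22 (SE, adjusted p = 3.79e-05 by the edgeR quasi-likelihood test with Benjamini-Hochberg adjustment over all genes, as for all adjusted p here). At 12 h, Mt2 had 186, 105 and 108 CPM with IL-1beta and 71.4, 64.3 and 76.9 CPM in control tissue, a log2 fold change of 0.90 ± 0.22 (adjusted p = 0.00191). Library a of IL-1beta was far above the other two, and without it the value was 0.59 (adjusted p = 0.0562). At 24 h, Mt2 had 299.6, 287 and 286 CPM with IL-1beta and 55.7, 48.4 and 95.8 CPM in control tissue, a log2 fold change of 2.13 ± 0.23 (adjusted p = 1.53e-09). At 72 h, it had 204, 200.2 and 195 CPM with IL-1beta and 33.5, 41.2 and 28.4 CPM in control tissue, which is 5.79-fold higher (log2 fold change 2.53 ± 0.23, adjusted p = 3.61e-11). The 3 IL-1beta libraries at 24 h and at 72 h lay close together, and none came near the controls. In the order of its 13 group means, IL-1beta at 4 h came first with 339 ± 107 CPM (SD, n = 3) and the control at 72 h last with 34.4 ± 6.5 CPM, and 8 of the 12 neighbouring pairs overlapped.

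Mt1, the more abundant of the pair, rose with smaller log2 fold changes. It had 1064, 1403 and 1701 CPM with IL-1beta at 4 h and 906, 988 and 736 CPM in control tissue, a log2 fold change of 0.66 ± 0.18 (adjusted p = 0.00409). At 12 h the libraries overlapped, at 885, 555 and 566 CPM with IL-1beta and 498, 481 and 632 CPM in control tissue, and the difference did not pass the test (0.32 ± 0.18, adjusted p = 0.199). It did pass with no low-count filter (0.29, adjusted p = 0.00101), so this call depends on the filter. At 24 h, Mt1 had 1248, 1107 and 1186 CPM with IL-1beta and 412, 373 and 632 CPM in control tissue, a log2 fold change of 1.32 ± 0.18 (adjusted p = 3.4e-07). At 72 h it had 841, 898 and 894 CPM with IL-1beta and 256, 310.2 and 211 CPM in control tissue, a log2 fold change of 1.76 ± 0.18 (adjusted p = 7.15e-10). In both of these the groups were far apart. Its highest group means were those of the control at 0 h, 1392 ± 223 CPM (SD, n = 2), and IL-1beta at 4 h, 1389 ± 319 CPM (SD, n = 3), which overlapped, and 10 of the 12 neighbouring pairs did.

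With TNF-alpha, Mt2 had 102.6, 91.1 and 137 CPM at 12 h, against 71.4, 64.3 and 76.9 CPM in control tissue (log2 fold change 0.64 ± 0.22, adjusted p = 0.0284). This call was lost without control a, control b or TNF-alpha c, with log2 fold changes of 0.66, 0.59 and 0.45. At 24 h, Mt2 had 131, 109 and 148 CPM with TNF-alpha against 55.7, 48.4 and 95.8 CPM in control tissue (0.96 ± 0.22, adjusted p = 0.00117). At 72 h it had 122, 93.4 and 87.1 CPM with TNF-alpha against 33.5, 41.2 and 28.4 CPM in control tissue (1.55 ± 0.23, adjusted p = 1.3e-06). The TNF-alpha libraries lay above all controls at each of these times, with the narrowest gap at 24 h, where control c was the highest control. Mt1 passed the test with TNF-alpha at 72 h alone, with 498, 415 and 418 CPM against 256, 310.2 and 211 CPM in control tissue (0.78 ± 0.18, adjusted p = 0.000812). At 12 h it had 563, 464 and 664 CPM with TNF-alpha against 498, 481 and 632 CPM in control tissue, which overlapped (0.07 ± 0.18, adjusted p = 0.815). At 24 h it had 627, 541 and 716 CPM with TNF-alpha against 412, 373 and 632 CPM in control tissue. The groups overlapped through control c, the difference was 0.41 ± 0.18 (adjusted p = 0.0923), and without control c, the highest control for both metallothioneins, it was 0.67 (adjusted p = 0.00841). With no low-count filter it was 0.43 and passed (adjusted p = 9.25e-08), so this call depends on the filter too.

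At 4 h with TNF-alpha, Mt1 had 606, 613 and 679 CPM against 906, 988 and 736 CPM in control tissue, and Mt2 had 143.4, 129.99 and 143.2 CPM against 165.9, 165.8 and 109.8 CPM. All TNF-alpha libraries lay below all controls for Mt1, but the difference of -0.47 ± 0.18 did not pass the test (adjusted p = 0.0574). It did pass under library totals alone (adjusted p = 0.0448), with no low-count filter (adjusted p = 1.15e-10), with only the libraries compared (adjusted p = 0.00201), with the replicate block (adjusted p = 0.0496) and without control 4 h c (adjusted p = 0.0343). For Mt2 the groups overlapped (-0.08 ± 0.22, adjusted p = 0.832). Against the control at 12 h, which lies on the same side of the library parting, TNF-alpha at 4 h gave 0.24 for Mt1 (adjusted p = 0.366) and 0.97 for Mt2 (adjusted p = 0.00113). That comparison also differs in time, so time in culture and the cytokine cannot be told apart in it. Control tissue itself had a mean of 147 CPM of Mt2 at 4 h and 70.8 CPM at 12 h. How reads that match both Mt1 and Mt2 were counted is not given in the sources used here, so counts of the pair may share reads.

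The ratio of Mt1 to Mt2 counts within a library was lower with either cytokine than in control tissue at every time. It is given as a description, since it was chosen after its values were seen. With IL-1beta there were 3.8 to 4.82 Mt1 counts per Mt2 count at 4 h, 4.76 to 5.31 at 12 h, 3.86 to 4.17 at 24 h and 4.12 to 4.58 at 72 h. With TNF-alpha the ratio was 4.23 to 4.74 at 4 h, 4.84 to 5.49 at 12 h, 4.77 to 4.97 at 24 h and 4.07 to 4.8 at 72 h. In control tissue it was 6.84 to 6.87 at 0 h, 5.46 to 6.71 at 4 h, 6.98 to 8.22 at 12 h, 6.6 to 7.71 at 24 h and 7.43 to 7.64 at 72 h. Cytokine and control libraries of the same time did not overlap, including at 4 h with TNF-alpha. Since both counts come from the same library, the ratio does not depend on scaling. Together the pair took 0.0639% to 0.195% of a library's counts with IL-1beta, 0.0535% to 0.0917% with TNF-alpha and 0.0238% to 0.175% in control tissue.

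**Figure D2:**
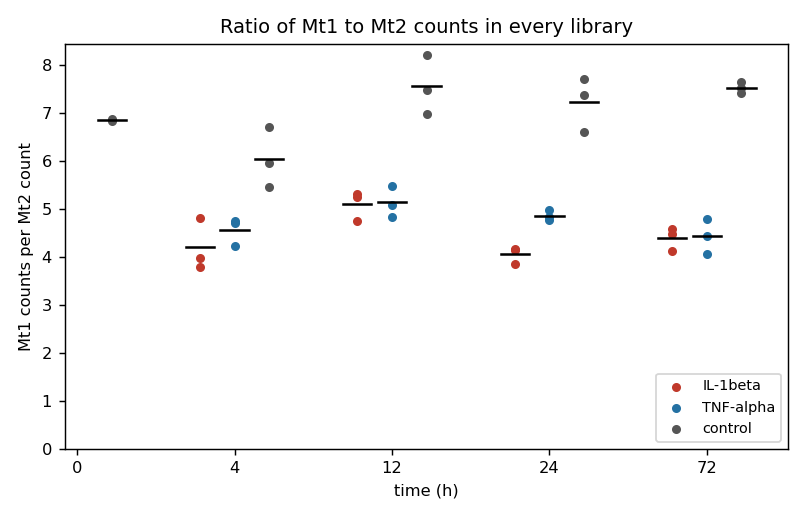
Mt1 counts per Mt2 count (vertical axis, from 0) by time in h (horizontal axis, times evenly spaced), with 1 point per library and a black bar at the group mean. IL-1beta libraries lie between 3.8 and 5.31, TNF-alpha libraries between 4.07 and 5.49, and control libraries between 5.46 and 8.22.

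Mtf1, the zinc-sensing factor, moved little. It rose with IL-1beta at 4 h, with 33.7, 35.0 and 34.4 CPM against 30.4, 30.1 and 30.0 CPM in control tissue, and at 24 h, with 31.6, 30.5 and 30.1 CPM against 27.8, 25.8 and 23.6 CPM. All IL-1beta libraries lay above all controls at both times, by log2 fold changes of 0.19 ± 0.06 (adjusted p = 0.0209) and 0.26 ± 0.07 (adjusted p = 0.00233). The first of these calls was lost with scaling by library totals alone, at 0.09 (adjusted p = 0.357), with no low-count filter (0.17, adjusted p = 0.284), and without IL-1beta 4 h b (adjusted p = 0.0561). With IL-1beta at 12 h Mtf1 had 30.3, 33.7 and 30.0 CPM against 29.6, 31.0 and 27.9 CPM in control tissue, and at 72 h 26.4, 26.1 and 26.5 CPM against 25.3, 26.1 and 22.7 CPM. The IL-1beta and control values lay close together at both times, and the differences of 0.09 ± 0.07 each did not pass the test. With TNF-alpha it had 29.0, 33.2 and 31.5 CPM at 4 h, 30.4, 34.6 and 30.9 CPM at 12 h, 27.9, 28.0 and 27.7 CPM at 24 h and 26.1, 24.9 and 25.5 CPM at 72 h, which overlapped with control at each time. The TNF-alpha differences were 0.05 ± 0.07, 0.11 ± 0.07, 0.12 ± 0.07 and 0.04 ± 0.07 at 4, 12, 24 and 72 h, none of which passed. Of the 12 neighbouring pairs in the order of its 13 group means, 11 overlapped. An mRNA level does not measure the zinc-bound or nuclear protein.

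Slc39a14 rose with IL-1beta at all 4 times and had the smallest adjusted p of the 6 genes at each of them. It had 2351, 2332 and 2311 CPM at 4 h against 900.4, 994 and 900.1 CPM in control tissue, a log2 fold change of 1.32 ± 0.09 (adjusted p = 1.99e-13). At 12 h it had 1727, 1754 and 1851 CPM with IL-1beta against 894, 952 and 863 CPM in control tissue, a log2 fold change of 0.98 ± 0.09 (adjusted p = 2.37e-10). The IL-1beta libraries were far above all controls at both times. At 24 h it had 1909, 1789 and 1896 CPM with IL-1beta against 460.3, 473 and 529 CPM in control tissue (1.94 ± 0.10, adjusted p = 1.07e-17), and at 72 h 1410, 1371 and 1351 CPM against 287, 333 and 317 CPM (2.14 ± 0.10, adjusted p = 3.5e-19). In both groups all libraries were lower at 72 h than at 4 h. These 2 times lie on different sides of the library parting, so time and a batch of libraries cannot be told apart here. In the order of its 13 group means the 4 IL-1beta groups came first, and 6 of the 12 neighbouring pairs did not overlap, among them TNF-alpha at 72 h above the control at 72 h, the lowest group. With TNF-alpha, Slc39a14 rose at 4 h, with 1156, 1404 and 1453 CPM against 900.4, 994 and 900.1 CPM in control tissue (0.52 ± 0.09, adjusted p = 7.04e-05), and at 72 h, with 528, 434 and 463 CPM against 287, 333 and 317 CPM (0.61 ± 0.09, adjusted p = 2.93e-06). At 12 h it had 1061, 959.6 and 762 CPM with TNF-alpha against 894, 952 and 863 CPM in control tissue (0.04 ± 0.09, adjusted p = 0.806), and at 24 h 574, 475 and 582 CPM against 460.3, 473 and 529 CPM (0.16 ± 0.09, adjusted p = 0.237). The groups overlapped at both of these times. Against the control at 12 h, where time differs too, TNF-alpha at 4 h gave 0.57 (adjusted p = 1.66e-05).

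Slc39a8, the other importer, rose with IL-1beta at all 4 times and did not pass the test with TNF-alpha at any. With IL-1beta it had 159.7, 206 and 214 CPM at 4 h against 133, 129.8 and 116 CPM in control tissue (0.61 ± 0.10, adjusted p = 5.23e-06), and 174, 149.8 and 172 CPM at 12 h against 87.8, 89.0 and 78.9 CPM (0.95 ± 0.10, adjusted p = 1.45e-09). It had 207, 217 and 220.1 CPM with IL-1beta at 24 h against 72.2, 77.2 and 81.9 CPM in control tissue (1.48 ± 0.10, adjusted p = 2.36e-14), and 242, 256 and 211 CPM at 72 h against 83.8, 99.8 and 102 CPM (1.31 ± 0.10, adjusted p = 2e-13). The groups did not overlap at any time. With TNF-alpha it had 108, 138 and 118 CPM at 4 h, 85.4, 72.6 and 72.3 CPM at 12 h, 78.5, 71.5 and 78.4 CPM at 24 h and 89.1, 81.4 and 83.5 CPM at 72 h, which overlapped with the controls of each time. The TNF-alpha differences were -0.06 ± 0.10, -0.15 ± 0.10, -0.02 ± 0.10 and -0.17 ± 0.10, with adjusted p of 0.729, 0.281, 0.922 and 0.186. Against the control at 12 h, where time differs too, TNF-alpha at 4 h gave 0.51 (adjusted p = 0.000183). The 4 IL-1beta groups held the first 4 places in the order of its 13 group means, and the lowest of them did not overlap with the next, the control at 4 h. The other neighbours overlapped, apart from TNF-alpha at 4 h and the control at 72 h.

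Slc30a1, the exporter, fell at 4 h with both cytokines and rose with IL-1beta at 24 and 72 h. At 4 h it had 34.2, 33.4 and 33.9 CPM with IL-1beta and 36.0, 36.2 and 36.4 CPM with TNF-alpha, against 49.0, 48.0 and 51.0 CPM in control tissue. Both cytokine groups lay below all controls, with log2 fold changes of -0.54 ± 0.08 for IL-1beta (adjusted p = 1.23e-06) and -0.45 ± 0.08 for TNF-alpha (adjusted p = 7.61e-05). The control at 4 h was the highest of all 13 group means, and control libraries at 0 h had 37.6 and 30.2 CPM, a range that held all 6 cytokine libraries of 4 h. Against the control at 12 h, where time differs too, the TNF-alpha value at 4 h was -0.17 and did not pass the test (adjusted p = 0.122). With IL-1beta, Slc30a1 had 46.8, 46.0 and 49.2 CPM at 24 h against 35.2, 37.3 and 37.8 CPM in control tissue (0.36 ± 0.08, adjusted p = 0.000402), and 34.4, 37.7 and 38.1 CPM at 72 h against 23.2, 25.9 and 28.5 CPM (0.51 ± 0.08, adjusted p = 4.18e-06). The groups were apart at both times. At 12 h it had 40.5, 49.8 and 45.7 CPM with IL-1beta against 42.8, 43.8 and 35.9 CPM in control tissue, which overlapped (0.15 ± 0.08, adjusted p = 0.164). Without IL-1beta 12 h a it was 0.23 (adjusted p = 0.0452). With TNF-alpha it had 37.2, 43.5 and 43.2 CPM at 12 h, 36.5, 34.6 and 34.7 CPM at 24 h and 28.3, 28.4 and 26.3 CPM at 72 h. All 3 overlapped with control, and the TNF-alpha differences at 12, 24 and 72 h were 0.01 ± 0.08, -0.06 ± 0.08 and 0.10 ± 0.08, none of which passed. Of its 12 neighbouring pairs of group means, only IL-1beta at 4 h and TNF-alpha at 72 h did not overlap, and TNF-alpha and control at 72 h were the lowest groups.

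**Figure D3:**
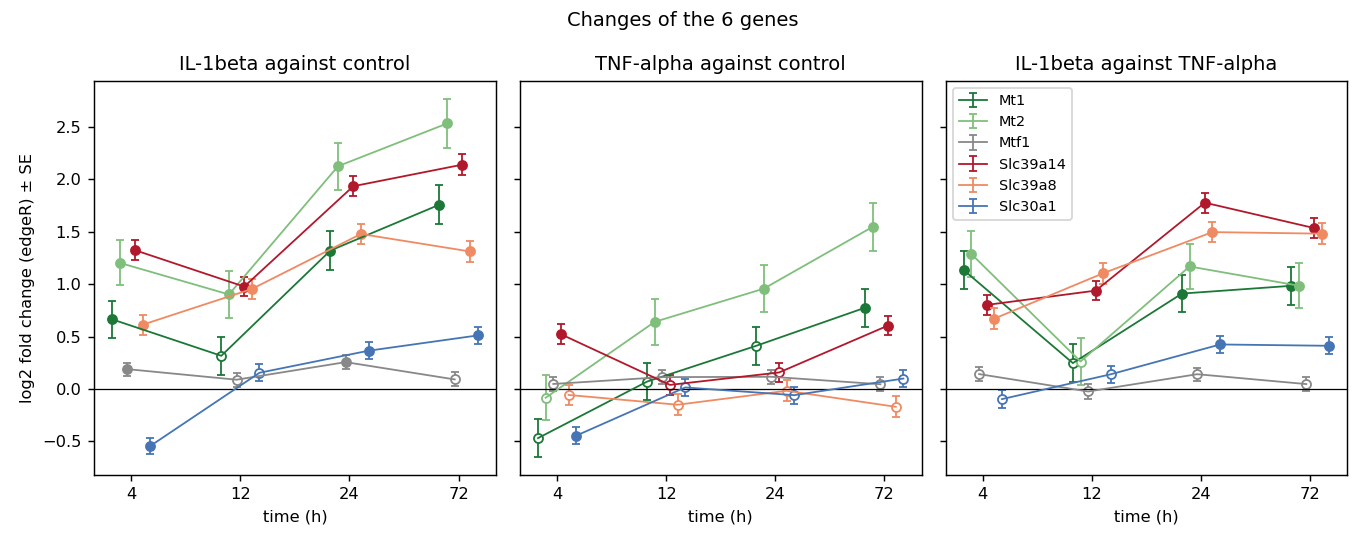
Log2 fold changes of the 6 genes (vertical axis, edgeR, bars show the standard error) by time in h (horizontal axes, times evenly spaced) for IL-1beta against control, TNF-alpha against control and IL-1beta against TNF-alpha. Filled points passed an adjusted p of 0.05, and with IL-1beta the values at 72 h reach 2.53 for Mt2 and 2.14 for Slc39a14, while Slc30a1 lies at -0.54 at 4 h.

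Counted together, 5 of the 6 genes rose and 1 fell with IL-1beta at 4 h, where 32.7% of all 18857 genes were called, 15.5% higher and 17.2% lower. The counts that rose were 3 at 12 h (14.5% of all genes higher, 29.6% called in either direction), 6 at 24 h (17% higher, 32.6% called) and 5 at 72 h (19.3% higher, 38.9% called). The median log2 fold change of the 6 genes was 0.64, 0.61, 1.4 and 1.54 at the 4 times, against -0.03, -0.02, -0.01 and 0.00 for all genes tested. For TNF-alpha at 4 h, 1 gene rose and 1 fell, where 21.5% of all genes were called, 10.9% higher and 10.6% lower. The counts that rose were 1 at 12 h (14.6% of all genes higher, 28.4% called), 1 at 24 h (13.2% higher, 25% called) and 3 at 72 h (17.8% higher, 36% called), and the medians over the 4 times were -0.07, 0.05, 0.14 and 0.35. With 6 genes, the TNF-alpha counts up to 24 h are near the share of all genes called. Cytokine and control libraries did not overlap in 6, 3, 6 and 6 of the 6 genes with IL-1beta over the 4 times. Among all 18857 genes this held for 7953, 7372, 8720 and 9647. With TNF-alpha it held for 3, 1, 1 and 3 of the 6, and for 7341, 6833, 7684 and 8585 of all genes. A lack of overlap is therefore common among all genes.

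The cytokines were also set against each other. IL-1beta libraries were higher than TNF-alpha libraries in 4 of the 6 genes at 4 h (5.71% of all genes higher, 12.4% called in either direction) and in 2 at 12 h (4.7% higher, 10.6% called). They were higher in 5 of the 6 at 24 h (9.31% higher, 20.1% called) and in 5 at 72 h (19.4% higher, 39.8% called). Slc39a14 and Slc39a8 passed at every time, Slc39a14 by 0.80 ± 0.09, 0.94 ± 0.09, 1.78 ± 0.10 and 1.54 ± 0.10 and Slc39a8 by 0.67 ± 0.10, 1.11 ± 0.10, 1.50 ± 0.10 and 1.48 ± 0.10, with adjusted p of at most 5.95e-06. Mt1 and Mt2 passed at 4, 24 and 72 h, at 72 h by 0.98 ± 0.18 (adjusted p = 3.06e-05) and 0.99 ± 0.22 (adjusted p = 0.000354). At 12 h they differed by 0.25 ± 0.18 and 0.26 ± 0.22 and did not pass. Slc30a1 was higher with IL-1beta at 24 h by 0.42 ± 0.08 (adjusted p = 6.95e-05) and at 72 h by 0.41 ± 0.08 (adjusted p = 7.75e-05), while at 4 h the cytokines differed by -0.10 ± 0.08 (adjusted p = 0.519). Mtf1 did not pass at any time. The doses of the cytokines differ, so these are differences between the treatments as given. Those at 4 h also run across the library parting, so a batch of libraries and the cytokine cannot be told apart in them.

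An interaction test asked whether the fold change of a gene depended on time. For IL-1beta it passed in 5 of the 6 genes, all but Mtf1 (adjusted p = 0.341), where 38.7% of all genes passed, and for TNF-alpha in 4 of the 6, all but Mtf1 and Slc39a8 (adjusted p = 0.855 and 0.761), where 19.2% passed. Without the groups at 4 h it passed for IL-1beta in 4 of the 6 genes, where 5050 of all 18857 genes passed. For TNF-alpha it then passed in 1 of the 6, Slc39a14 (adjusted p = 0.00939), where 1460 of all genes passed.

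In control tissue over time, Slc39a14, Mt1 and Mt2 fell. At 72 h against 12 h, Slc39a14 had 287, 333 and 317 CPM against 894, 952 and 863 CPM (-1.53 ± 0.10, adjusted p = 2.87e-14). Mt1 fell by 1.05 ± 0.18 on the log2 scale (adjusted p = 2.17e-05), Mt2 by 1.04 ± 0.23 (adjusted p = 0.000561), Slc30a1 by 0.66 ± 0.08 (adjusted p = 9.7e-08) and Mtf1 by 0.26 ± 0.07 (adjusted p = 0.00267). The Mtf1 call was lost under library totals alone (-0.16, adjusted p = 0.0892) and with no low-count filter (adjusted p = 0.0675). These 5 of 6 genes stand beside 18.3% of all genes lower and 37.1% called, and Slc39a8 differed by 0.16 ± 0.10 (adjusted p = 0.216). At 24 h against 12 h, 2 of the 6 genes fell, where 11.5% of all genes were lower and 21.7% called: Slc39a14 by 0.89 ± 0.09 (adjusted p = 3.95e-08) and Mtf1 by 0.20 ± 0.07 (adjusted p = 0.0308). The Mtf1 call was lost without control 12 h a or b or control 24 h b or c, with log2 fold changes of -0.19, -0.15, -0.20 and -0.13. That call was also lost under library totals alone (-0.07, adjusted p = 0.506) and with no low-count filter (adjusted p = 0.358). With only the libraries compared it was lost too (adjusted p = 0.0981). At 4 h against 0 h, 1 of the 6 genes fell and 3 rose, where 10.2% of all genes were called in each direction and 20.4% in all. Mt1 fell, with 906, 988 and 736 CPM at 4 h against 1234 and 1549 CPM at 0 h (-0.67 ± 0.20, adjusted p = 0.0141). Slc30a1 (0.54 ± 0.09, adjusted p = 5.07e-05), Slc39a8 (0.44 ± 0.11, adjusted p = 0.00417) and Mtf1 (0.21 ± 0.07, adjusted p = 0.0412) rose. At 0 h, control libraries a and c had 99.4 and 86.6 CPM of Slc39a8, 27.0 and 25.2 CPM of Mtf1, 180.3 and 225 CPM of Mt2 and 1155 and 1058 CPM of Slc39a14. Neither Mt2 (-0.46 ± 0.24, adjusted p = 0.182) nor Slc39a14 (-0.25 ± 0.10, adjusted p = 0.0894) passed the test. Mt2 did pass with no low-count filter (-0.40, adjusted p = 0.000104). With a single library left at 0 h, without control 0 h c, only Slc30a1 passed. The Mt1 call was also lost without control 4 h c (-0.54, adjusted p = 0.0886). The Mtf1 call was lost without control 4 h a or control 4 h b (adjusted p = 0.0672 and 0.0557). Without control 0 h a, which also leaves a single library at 0 h, the Mtf1 value was 0.26 and the call was lost as well. The Mtf1 call was lost too under library totals alone (adjusted p = 0.097) and with no low-count filter (adjusted p = 0.123). With only the libraries compared its adjusted p was 0.0807, and with the replicate block 0.0529.

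A list of 24 other genes of zinc transport and metallothioneins was taken from general knowledge, of which 19 passed the low-count filter. The IL-1beta comparisons, ordered by time, had 5, 2, 4 and 3 of the 19 higher and 1, 3, 3 and 5 lower. All genes called in these comparisons were 32.7%, 29.6%, 32.6% and 38.9%, which the listed genes are near. Those of TNF-alpha had 5, 7, 4 and 6 of the 19 higher and 4, 3, 3 and 4 lower, beside 21.5%, 28.4%, 25% and 36% of all genes called. Set against TNF-alpha, IL-1beta had 5, 0, 2 and 3 higher and 0, 0, 4 and 6 lower, beside 12.4%, 10.6%, 20.1% and 39.8% of all genes. At 12 h, where edgeR called none of them between the cytokines, 5 had an unadjusted p under 0.05 and DESeq2 called 1. The list's median log2 fold changes lay between -0.08 and 0.11 in the 8 comparisons with control, against -0.03 to 0.00 for all genes. Slc39a10 (ZIP10), a zinc importer of the plasma membrane, rose with IL-1beta at 4 h to 59.2 ± 0.71 CPM against 21.9 ± 0.37 CPM in control tissue (SD, n = 3 each), a log2 fold change of 1.44 ± 0.09 (SE, adjusted p by edgeR = 2.44e-15). With TNF-alpha at 4 h it had 39.8 ± 1.7 CPM against the same controls (0.86 ± 0.09, adjusted p = 2.86e-09). Slc39a10 also rose with IL-1beta at 12 h (0.69) and with TNF-alpha at 12, 24 and 72 h (0.73, 0.47 and 0.43). Each of these calls held in all 6 fits without 1 library. With IL-1beta at 24 and 72 h its libraries overlapped with control. Slc39a4 (ZIP4), known as the importer of dietary zinc in the gut, was low. With TNF-alpha at 4 h it fell by 0.92 ± 0.23 on the log2 scale (adjusted p = 0.0035), a call lost without TNF-alpha 4 h a (-0.65, adjusted p = 0.0666). With IL-1beta at 4 h it was higher by 0.46 ± 0.18 (adjusted p = 0.0454), a call lost in all 6 fits without 1 library (adjusted p of 0.0576 to 0.13). With TNF-alpha at 12 h it rose by 0.89 ± 0.19 (adjusted p = 0.000394), and with IL-1beta the difference at 12 h of 0.50 ± 0.20 did not pass (adjusted p = 0.0588). At 24 h it rose by 1.42 ± 0.20 with IL-1beta (adjusted p = 4.08e-07) and by 1.72 ± 0.19 with TNF-alpha (adjusted p = 1.05e-08). At 72 h it had 173, 182 and 150 counts with IL-1beta and 233, 470 and 231 counts with TNF-alpha, against 26, 21 and 14 counts in control tissue. The log2 fold changes at 72 h were 2.98 ± 0.22 for IL-1beta (adjusted p = 1.48e-13) and 3.36 ± 0.21 for TNF-alpha (adjusted p = 6.58e-15).

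Mt3, the metallothionein best known from brain, lies near Mt2 on chromosome 8 and was at most 93 counts in any library. With TNF-alpha at 24 h it had 57, 74 and 93 counts against 5, 2 and 1 counts in control tissue, and all TNF-alpha libraries lay far above the controls (log2 fold change 4.26 ± 0.44, adjusted p = 1.66e-09). With IL-1beta at 24 h it had 20, 10 and 15 counts against the same controls (1.93 ± 0.56, adjusted p = 0.00724), a call lost without control 24 h c (1.55, adjusted p = 0.0541). It rose at 12 h too, with 24, 14 and 22 counts with IL-1beta and 32, 14 and 32 counts with TNF-alpha against 5, 5 and 3 counts in control tissue (adjusted p = 3.78e-05 and 2.54e-05). At 72 h it had 23, 26 and 17 counts with TNF-alpha and 0, 1 and 2 counts in control tissue (adjusted p = 1.31e-05). At 72 h with IL-1beta it had 0, 1 and 2 counts. Mt4 had 8, 3 and 4 counts with TNF-alpha at 4 h against 63, 40 and 18 counts in control tissue, whose libraries were deeper. Scaled, these were 0.552, 0.221 and 0.320 CPM against 1.31, 1.46 and 0.556 CPM (-1.58 ± 0.48, adjusted p = 0.016), across the library parting. This call held in 2 of 6 fits without 1 library (adjusted p of up to 0.0914). Those 2 left out control 4 h c or TNF-alpha 4 h a, and DESeq2 lost the call. All 8 libraries on one side of the parting had at least 0.556 CPM of Mt4, and the other 30 at most 0.552 CPM. The cytokine and the parting therefore cannot be told apart for Mt4. With the control at 12 h as reference, where time differs too, the value was 0.98 (adjusted p = 0.327). Slc39a2 (ZIP2) had 13, 14 and 9 counts with IL-1beta at 72 h and 52, 54 and 44 counts with TNF-alpha, against 28, 18 and 17 counts in control tissue. The log2 fold changes were -0.88 ± 0.33 for IL-1beta (adjusted p = 0.0295) and 0.73 ± 0.25 for TNF-alpha (adjusted p = 0.0237). The IL-1beta call was lost without control 72 h a or IL-1beta 72 h c (adjusted p of up to 0.186), and the TNF-alpha call without control 72 h b, control 72 h c or TNF-alpha 72 h a (adjusted p of up to 0.143). Set against TNF-alpha, IL-1beta at 72 h gave a log2 fold change of -1.61 ± 0.28 (adjusted p = 1.75e-05). Tmem163, a zinc transporter, had 19, 14 and 15 counts with TNF-alpha at 72 h against 10, 5 and 1 counts in control tissue (1.07 ± 0.42, adjusted p = 0.0431). Leaving out replicate a of the controls gave 1.84, and leaving out c gave 0.67. The call held in 2 of 6 fits without 1 library, being lost without control 72 h b or c or TNF-alpha 72 h a or c (adjusted p of up to 0.24), and was lost with DESeq2, with no low-count filter and with only the libraries compared.

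**Figure D4:**
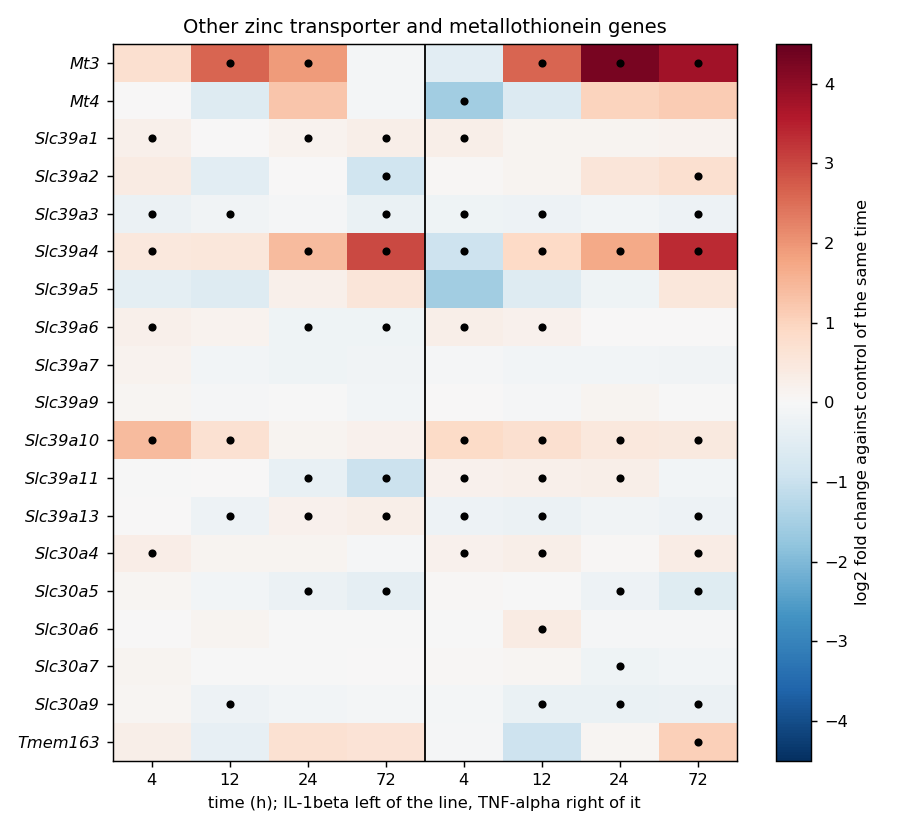
Log2 fold changes (colour scale, edgeR) of the 19 other zinc genes past the filter (rows) with IL-1beta and TNF-alpha against the control of the same time, at 4, 12, 24 and 72 h (columns). Black dots mark an adjusted p under 0.05, and the strongest rises are Mt3 with TNF-alpha at 24 h (4.26) and 72 h, where the value rests on 3 control counts in all, and Slc39a4 with TNF-alpha at 72 h (3.36).

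Likeness to other genes was measured by Pearson r of log2 CPM over the 38 libraries, among 12621 candidate genes. The libraries share treatment, time and depth, so r is a description and is given with no p. Mt1 and Mt2 were each other's nearest gene, with r = 0.948, followed by Npc2 (0.814) and Smim3 (0.813) for Mt1 and by Cep85 (0.879) and Acsl4 (0.856) for Mt2. Slc39a14 was most like Zc3h12a (0.968), Il1rn (0.962) and Smim3 (0.962), and Slc39a8 most like Slc16a1 (0.941), Steap4 (0.94) and Ifitm2 (0.934). Zc3h12a encodes an RNase that degrades inflammatory mRNAs, Il1rn the natural antagonist of the IL-1 receptor and Slc16a1 a lactate transporter. Mtf1 was most like E2f3 (0.889), Slco3a1 (0.872) and Tfe3 (0.856), and Slc30a1 most like Epb41l1 (0.733), Scarb1 (0.731) and Slc26a6 (0.725). Among the members, Slc39a14 had r = 0.804 with Mt2 and 0.766 with Slc39a8, and Mtf1 had r = 0.451 with Mt1 and 0.49 with Mt2. Mtf1 had a higher r with Slc39a14 (0.719) and with Slc30a1 (0.557) than with either metallothionein. Slc30a1 had r = 0.419 with Mt1 and 0.368 with Mt2.

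Other genes give the setting in which these changes occurred. Socs3, an inhibitor of cytokine signalling through STAT3, rose with IL-1beta by 1.74, 0.95, 1.64 and 2.08 on the log2 scale at 4, 12, 24 and 72 h and with TNF-alpha by 0.74 (4 h) and 0.56 (72 h), while its TNF-alpha differences at 12 and 24 h were -0.01 and -0.20 and did not pass. Il6, a cytokine that signals through STAT3, rose with IL-1beta by 5.09 at 72 h and, with TNF-alpha, rose by 4.33 at 4 h and fell by 1.26 at 72 h. Nfkbia, the NF-kappaB inhibitor that NF-kappaB itself induces, rose with both cytokines at every time, by 2.51 with IL-1beta and 1.97 with TNF-alpha at 72 h. Hmox1, the haem-degrading enzyme induced by oxidative stress, rose at 12 h by 3.66 with IL-1beta and by 3.01 with TNF-alpha, and at 72 h it fell by 0.32 with IL-1beta and rose by 2.43 with TNF-alpha. Tsc22d3 and Fkbp5, which glucocorticoids induce, fell at 72 h with both cytokines, Tsc22d3 by 1.07 with IL-1beta and 0.36 with TNF-alpha on the log2 scale, and Fkbp5 by 0.54 with IL-1beta and 0.66 with TNF-alpha. The collagenase Mmp13 rose by 4.92 with IL-1beta and by 2.45 with TNF-alpha at 72 h, and the aggrecanase Adamts5 by 2.30 and 1.92. All of these called values had an adjusted p of at most 0.043.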

How the data were processed

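Per the labels' protocols, total RNA was isolated with a Norgen kit, mRNA libraries were made with a Ribo-Zero Gold kit and sequenced on a HiSeq3000. The authors deposited 1 table of raw counts per gene, with gene lengths. The submitters' processing notes name STAR, Trimmomatic, cutadapt, featureCounts and mm10, with no versions, and the sources used here give neither strand nor multi-read settings. Groups were taken from the labels. Of 39 columns, 38 were used: replicate b of control at 0 h held 220180 counts with 10 for Col2a1, against 1603729 and 998568 in a and c, and its log2 profile had r = 0.182 and 0.183 with theirs. A further 2199 lines without a gene name (0.00184% of counts) were left out.

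Counts were filtered with filterByExpr (18857 genes, 99.905% of counts), scaled by TMM (factors 0.864 to 1.12) and fitted with the edgeR 4.0.16 quasi-likelihood test in R 4.3.3, in 1 model of 13 groups, with Benjamini-Hochberg adjustment over all genes and a threshold of 0.05. Biological coefficient of variation was 8.26%. CPM were scaled by TMM, and TPM used the deposited lengths. On simulated data for IL-1beta against control at 24 h (18049 genes), 98% to 100% of the changed genes were called at each fold size, and 15 of 17849 unchanged genes. The planted log2 fold changes were -2, -1, 1 and 2, in genes over 1 CPM, and every gene was given the same variation of 8.26%. These rates therefore do not cover smaller changes or genes that vary more. Replicates were checked for duplicates, and none was found. Promoter windows came from RefSeq (GRCm38.p6). The lowest count of any of the 6 genes in a library was 336. DESeq2 1.42.0, other scalings, no filter, a replicate block, other sets of libraries and leaving out single libraries were alternatives. The 6 genes and all lists were chosen with earlier results of these data known. Of the other zinc genes, those called with an absolute log2 fold change of at least 1 in a cytokine comparison were named, and for likeness the 3 genes of highest r were named, among genes with a mean of at least 1 CPM (log2 with a prior count of 2), leaving out predicted genes and pseudogenes.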

Additional observations from a re-analysis of the deposited data

Results flagged for a closer look

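Results are listed here because the effect of a cytokine differed between times by the edgeR interaction test, adjusted over all 18857 genes. For IL-1beta against control over 4, 12, 24 and 72 h, adjusted p was 6.93e-05 for Mt1, 0.000138 for Mt2, 6.58e-09 for Slc30a1, 1.01e-08 for Slc39a14 and 1.42e-05 for Slc39a8. Without 4 h, these were 9.77e-05, 0.000309, 0.0543, 1.61e-08 and 0.0115, so Slc30a1 no longer passed. For TNF-alpha against control, adjusted p was 0.00281 for Mt1, 0.00182 for Mt2, 0.00251 for Slc30a1 and 0.00284 for Slc39a14. Without 4 h, where the TNF-alpha comparison runs across the library parting, these were 0.181, 0.155, 0.657 and 0.00939, so Slc39a14 alone passed. The part of the parting in the TNF-alpha results cannot be told apart from the cytokine.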

How the results depend on the processing

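Of 102 results on the 6 genes (6 genes in 17 comparisons), DESeq2 and its size factors in edgeR kept direction and call in 102, the replicate block in 100, only the libraries compared in 99, library totals alone in 94, no low-count filter in 93 and the left-out column in 64. Of 822 fits without 1 library, 787 did. Where a call changed, the cause was not tested. Replicate letters do not pair the libraries (r of deviations -0.106 to 0.096, 0 of 44 pairs over 0.1). The block moved the call of Mt1 with TNF-alpha at 4 h (-0.48, adjusted p = 0.0496) and of Mtf1 in control at 4 h against 0 h (0.19, adjusted p = 0.0529), and no other call of these genes.

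With the left-out column, genes of the 6 called with IL-1beta were 2 and 1 at 4 and 12 h, with TNF-alpha 1, 0, 0 and 1 at the 4 times, between cytokines 1, 1, 2 and 3, in control over time 1, 0 and 3, and in the interactions 2 and 0. Other zinc genes called were 1, 2, 1 and 3 with IL-1beta, 2, 4, 3 and 4 with TNF-alpha, and between cytokines 2, 3 and 3 at 4, 24 and 72 h. It gave 0.0064 for Slc39a8 with TNF-alpha at 24 h and 0.34 for Slc39a14 in control at 4 h against 0 h. Of all genes, those called with IL-1beta were 2848, 2722, 3029 and 4284 at the 4 times, and with TNF-alpha 1584, 2331, 2038 and 3330. Between cytokines they were 685, 639, 1865 and 4342. In control over time they were 1745, 907 and 3304, and in the interactions 2994 and 739. All genes called were thus 639 to 4342 over 17 comparisons, against 1995 to 7512 without that column.

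In control at 24 h against 12 h, 1 of the 6 genes, Slc39a14, was called under library totals, no filter and only the libraries compared. These settings called 5258, 3382 and 4032 of all genes there. No filter called 2 of the 6 with TNF-alpha at 24 h, and 4161 of all genes. It called 5 other zinc genes with TNF-alpha at 4 h, and 4032 of all genes. It gave 0.0046 for Slc39a8 with TNF-alpha at 24 h. Library totals called 3 other zinc genes with IL-1beta at 4 h and 1 between cytokines at 12 h, where DESeq2 also called 1, edgeR 0 and 5 had an unadjusted p under 0.05. Library totals called 6833 and 1863 of all genes in these comparisons. They gave -0.055 for Mtf1 between cytokines at 72 h and 0.035 for Mt2 in control at 24 h against 12 h. Only the libraries compared called 2 other zinc genes between cytokines at 4 h, and 1549 and 908 of all genes at 4 and 12 h. Without 4 h, 1 of the 6 passed the TNF-alpha interaction, and 1460 of all genes. Against the control at 12 h, TNF-alpha at 4 h gave 0.24 for Mt1, 0.97 for Mt2, 0.51 for Slc39a8 and 0.98 for Mt4 (adjusted p = 0.327 for Mt4). Time differs in that comparison as well as the cytokine.

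Without single libraries, genes of the 6 called were 1 to 3 in control at 4 h against 0 h, 1 to 2 at 24 h against 12 h, 0 to 1 with TNF-alpha at 12 h and 1 to 2 at 24 h. With all libraries, 20.4%, 21.7%, 28.4% and 25% of all genes were called in these comparisons, in that order. Other zinc genes called were 4 to 7 with IL-1beta at 24 h, 5 to 8 with TNF-alpha at 4 h, and 3 to 5 and 0 to 1 between cytokines at 4 and 12 h. Here all libraries gave 32.6%, 21.5%, 12.4% and 10.6% of all genes. Log2 fold changes with TNF-alpha were -0.26 to 0.0105 for Mt2 and -0.16 to 0.019 for Slc39a8 at 4 h, -0.066 to 0.22 for Mt1, -0.061 to 0.16 for Slc39a14 and -0.054 to 0.095 for Slc30a1 at 12 h, -0.064 to 0.025 for Slc39a8 at 24 h and -0.031 to 0.084 for Mtf1 at 72 h. Between cytokines at 12 h they were -0.017 to 0.38 for Mt1, -0.065 to 0.45 for Mt2 and -0.083 to 0.019 for Mtf1, and for Mt2 in control at 24 h against 12 h -0.43 to 0.097. Of all genes, 1530 were called in control at 4 h against 0 h without control 0 h c, and 1431 between cytokines at 4 h without TNF-alpha 4 h a.

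Under library totals, higher genes were 28.4% of those called with IL-1beta at 4 h (47.4% with TMM), 40.5% with TNF-alpha at 4 h (50.7%), 67.1% at 72 h (49.3%), 27.2% and 34.9% between cytokines at 4 and 72 h (46.1% and 48.7%), and 77.1% and 65.4% in control at 24 and 72 h against 12 h (47.2% and 50.5%).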
